A study of Mus musculus with 6 samples.

Results

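DNA methylation was examined at 10 genes of histone modification and chromatin remodelling that are mutated in lymphoma: Kmt2d, Kmt2c, Setd2, Ezh2, Crebbp, Ep300, Hdac3, Arid1a, Arid1b and Smarca4, of 21900 protein-coding mouse genes in the RefSeq table. The list is one of known function and of mutation in lymphoma. For each, every CpG position with at least 10 reads in all 6 libraries was taken inside the gene's GRCm38 span or within 5 kb of it, which gave 2309 of 1463044 such positions. The libraries are enhanced reduced representation bisulfite sequencing, in which genomic DNA is cut with the enzyme MspI at CCGG, so that CpG-rich fragments are sampled, and bisulfite turns unmethylated cytosine into a base read as T. The methylation level of a position is the percentage of its reads that still read C; 5-methylcytosine and 5-hydroxymethylcytosine are both read as C and cannot be told apart.

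All libraries are of germinal centre B cells from the spleen of C57BL/6 mice, 3 labelled TET2 Knock-Out (KO) and 3 labelled Wild-Type (WT), with no treatment. TET2 is a dioxygenase that oxidises 5-methylcytosine. The labels do not state how the knock-out allele was made, the age of the animals or whether each library is a separate animal. The p-values therefore measure the spread between these 6 libraries only, and that spread may be technical. Reads over CpGs numbered 180397494 to 195582108 in KO libraries and 174375503 to 203863392 in WT libraries, and the share of C calls on the mitochondrial genome was 0.241% to 0.410% over the 6 libraries. At Tet2 itself, 6 CpG positions at chr3:133486189-133486297 were covered in all WT libraries, by 32 to 168 reads, and in no KO library. Over all positions the mean level was 33.8% ± 0.15 in KO libraries and 33.0% ± 0.413 in WT libraries (SD, n = 3 each). The ends of listed myeloid marker genes, 4 of 7 covered, had library medians of 87.6% to 90.1% in KO libraries and 77.2% to 84.2% in WT libraries, which did not overlap. Ends of B cell genes, 5 of 7 covered, had library medians of 0.501% to 1.58% in KO libraries and 0.674% to 2.10% in WT libraries, and ends of T cell genes, 3 of 7 covered, 0.386% to 0.710% in KO libraries and 0.459% to 2.55% in WT libraries; both overlapped. The part of cell composition in the results was not tested, and in bulk cells fewer cells of a type and a lower level per cell cannot be told apart.

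In germinal centres, B cells divide and mutate their immunoglobulin genes while chromatin enzymes switch enhancers and promoters on and off. KMT2D and KMT2C methylate histone H3 at enhancers, CREBBP and EP300 acetylate histones there, and HDAC3, recruited with BCL6 and its corepressors, removes the acetyl groups. EZH2 is the catalytic subunit of the repressive complex PRC2, SETD2 methylates histone H3 over transcribed gene bodies, and SMARCA4, ARID1A and ARID1B are the ATPase and 2 DNA-binding subunits of the SWI/SNF remodelling complexes. Promoters in CpG islands are usually unmethylated whether or not the gene is active, while the bodies of transcribed genes are usually methylated.

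The 250 bases before the start of 3 of the genes are printed here because they show which promoter CpGs the assay reads. The sequences are RefSeq's for GRCm38.p6, 5′ to 3′ on the gene's own strand, and capitals mark CpGs with at least one cytosine measured in all 6 libraries.
Kmt2d, minus strand, chr15:98871206-98871455: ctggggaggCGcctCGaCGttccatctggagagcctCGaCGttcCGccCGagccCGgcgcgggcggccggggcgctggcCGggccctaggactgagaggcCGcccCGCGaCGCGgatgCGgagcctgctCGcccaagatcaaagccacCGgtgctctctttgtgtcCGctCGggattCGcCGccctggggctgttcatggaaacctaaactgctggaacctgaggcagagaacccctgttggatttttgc
Ep300, plus strand, chr15:81585964-81586213: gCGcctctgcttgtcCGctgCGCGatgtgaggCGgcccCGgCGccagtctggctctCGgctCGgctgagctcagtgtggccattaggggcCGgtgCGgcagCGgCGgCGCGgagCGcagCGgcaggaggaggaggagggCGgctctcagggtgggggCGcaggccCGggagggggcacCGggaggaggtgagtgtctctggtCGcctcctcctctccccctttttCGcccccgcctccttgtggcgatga
Arid1a, outer of its 2 RefSeq starts, minus strand, chr4:133756770-133757019: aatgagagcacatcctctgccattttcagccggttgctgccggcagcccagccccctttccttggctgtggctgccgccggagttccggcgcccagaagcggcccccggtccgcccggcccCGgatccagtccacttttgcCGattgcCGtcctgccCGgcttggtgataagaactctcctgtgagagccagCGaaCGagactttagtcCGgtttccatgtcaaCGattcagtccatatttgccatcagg
Kmt2d's window held 26 CpGs, of which 21 were measured at 34 positions, a CpG having a position on each strand. These positions averaged 0.167% in KO libraries and 0.307% in WT libraries. Ep300's window held 25 CpGs, of which 23 were measured at 32 positions, averaging 0.214% in KO libraries and 0.294% in WT libraries. In Arid1a's outer promoter 8 of 18 CpGs were measured, at 12 positions averaging 0.0772% in KO libraries and 0.184% in WT libraries. All 3 promoters were close to fully unmethylated in both genotypes. The promoters not printed here were alike: Kmt2c's 57 measured positions averaged 0.0680% in KO libraries and 0.0618% in WT libraries, Crebbp's 38 averaged 0.206% in KO libraries and 0.0428% in WT libraries, and Setd2's 31 averaged 0.138% in KO libraries and 0.0165% in WT libraries. Arid1b's 28 averaged 0.119% in KO libraries and 0.0353% in WT libraries, and Smarca4's 14 averaged 0.0871% in KO libraries and 0.373% in WT libraries. CCGG, the MspI site, which reads the same on both strands, occurred 4, 4 and 9 times in these promoters of Kmt2d, Ep300 and Arid1a, and at least once in 47.1% of the 32851 RefSeq promoter windows of the same length. Ezh2's promoter window held 23 CpGs and no CCGG, and none of its CpGs was measured; the positions measured at its start lay elsewhere within 1 kb.

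The CpG-denser ends of all 10 chromatin regulator genes, and the RefSeq starts of the 9 that have one, were close to unmethylated in both genotypes. Each gene was read within 1 kb of the annotated end with the larger number of covered positions, its CpG-denser end. For 8 genes this was the RefSeq start, and the 10 ends together held 1131 positions. No library averaged above 0.940% at any of them. The end with the most positions, Kmt2c's with 259 positions, read 0.123%, 0.234% and 0.108% in KO libraries, against 0.212%, 0.101% and 0.0557% in WT libraries. KO means lay between 0.0757% at Kmt2d and 0.258% at Arid1a, and WT means between 0.0869% at Setd2 and 0.399% at Hdac3. KO and WT libraries overlapped at all 10 ends. Ends off the floor, at 5% to 95%, had all KO libraries above the WT libraries in 14.9% and below in 2.75%, a share that cannot be set against ends this close to 0%. Of all 14434 covered ends, 73.4% were likewise below 5%, the level under which no test was made because nearly no read carries a C. Of the 3708 testable ends genome-wide, 0.135% were called higher in KO.

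At Kmt2d the denser end was the far end of the gene, whose 23 positions lie next to Prkag1, so its start was read separately. The 170 positions around Kmt2d's RefSeq start averaged 0.264% ± 0.274 in KO libraries and 0.194% ± 0.0941 in WT libraries (SD, n = 3 each). Over the 9 genes with a RefSeq start, 1466 positions were measured and library means ran between 0% and 0.821%. Hdac3 has no promoter entry in the table and was read at its CpG-denser end, with 0.102%, 0.325% and 0.136% in KO libraries, against 0.940%, 0% and 0.257% in WT libraries over 34 positions.

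**Figure D1:**
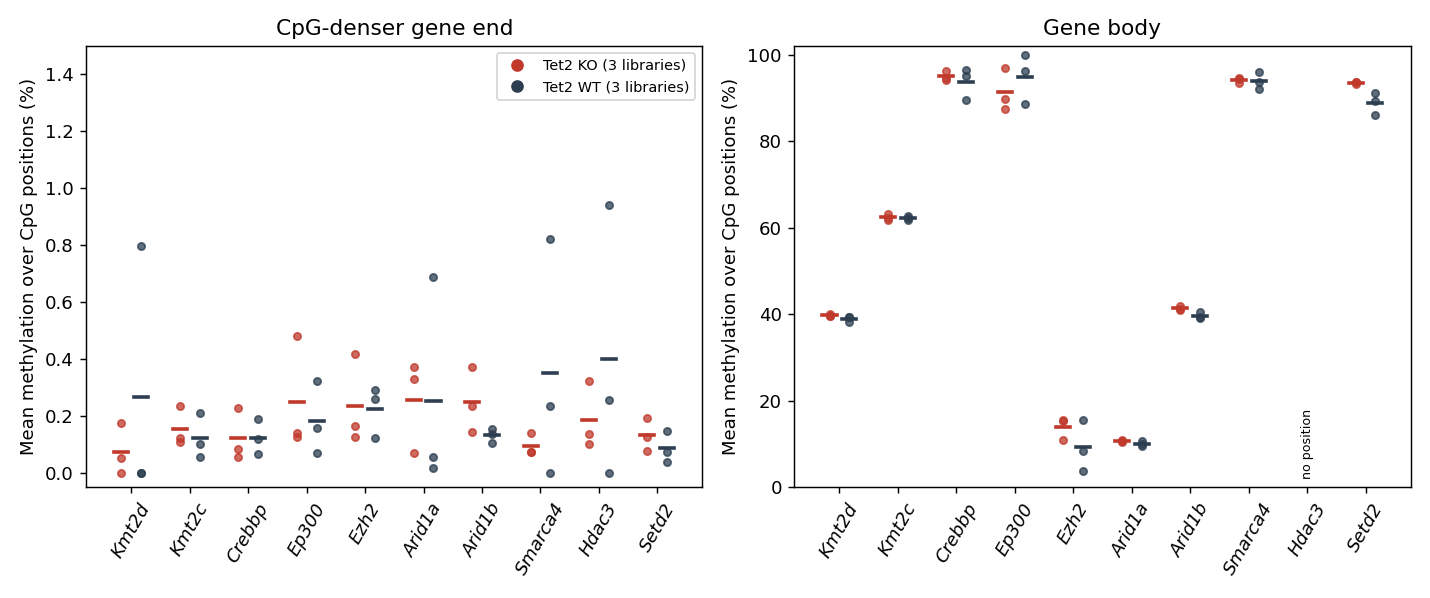
Methylation level (%) of each gene at its CpG-denser end (left, axis 0 to 1.5%) and in its body (right, axis 0 to 100%), averaged over CpG positions with equal weight. Dots are libraries and bars group means, KO left of WT. All ends lie below 1%, and body dots range between 3.70% in Ezh2 and 100% in Ep300.

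Body levels differed widely between the genes. A body is the span more than 1 kb inside both annotated ends, so it can hold positions within 1 kb of a RefSeq start. It did so in Kmt2d, Kmt2c, Arid1a, Arid1b and Ezh2. Away from the start, Kmt2d averaged 79.5% in KO libraries and 78.1% in WT libraries over 169 positions. Kmt2c averaged 80.9% in KO libraries and 80.6% in WT libraries over 27 such positions. Arid1b averaged 53.1% in KO libraries and 50.9% in WT libraries over 229, a mean of unlike positions. Of these 229, 92 lay below 5%, 87 between 5% and 95% and 50 above 95%. Arid1b's tile centred 1.43 kb from the start alone held 75 positions, at 0.197% in KO libraries and 0.0566% in WT libraries. Crebbp, Smarca4, Ep300 and Setd2 had bodies above 85% in both groups' means, while Arid1a averaged 10.8% ± 0.237 in KO libraries and 10.1% ± 0.482 in WT libraries over 299 positions. Arid1a's low mean holds the unmethylated positions near its inner start, and the 132 positions away from the starts averaged 24.2% ± 0.489 in KO libraries and 22.8% ± 1.15 in WT libraries. Of these 132, 95 still lay below 5%, 31 between 5% and 95% and 6 above 95%. The tile centred 4.27 kb from the outer start alone held 88 positions, at 0.186% in KO libraries and 0.107% in WT libraries. This tile, chr4:133752001-133753000, lies close to the inner start at 133753985. Arid1a, Arid1b and Kmt2d also held internal unmethylated stretches: a 1 kb tile 49.3 kb from the outer start of Arid1a stood at 0% in KO libraries and 0.0468% in WT libraries over 6 positions, and the Arid1b tile 194 kb from the start at 0.0333% in KO libraries and 0.225% in WT libraries over 15 positions. In Kmt2d the tile 3.71 kb from the start stood at 1.98% ± 1.10 in KO libraries and 1.47% ± 1.43 in WT libraries.

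**Figure D2:**
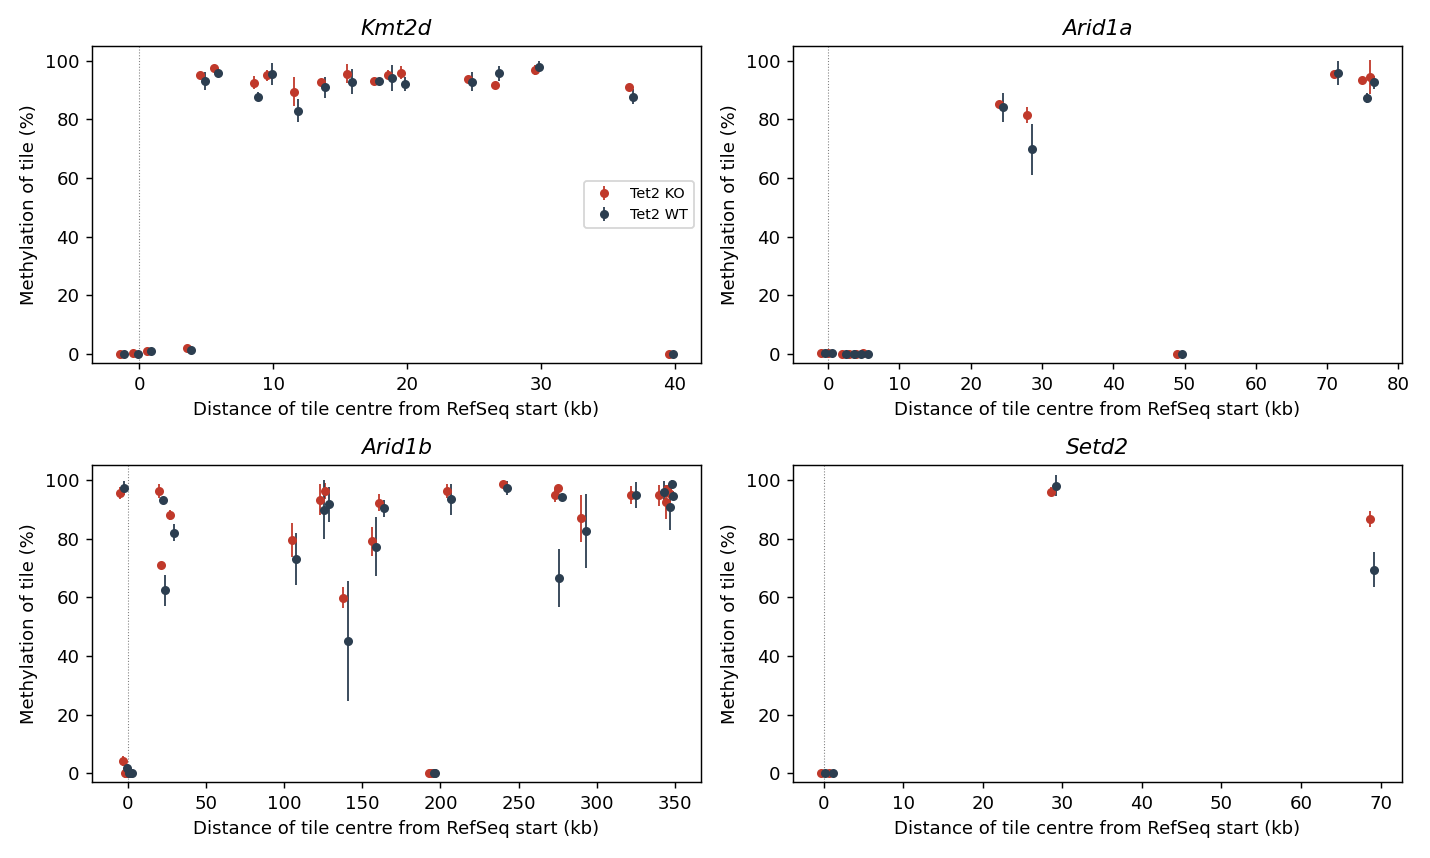
Methylation level (%) of 1 kb tiles against distance from the RefSeq start (kb) in Kmt2d, Arid1a, Arid1b and Setd2, as mean ± SD of 3 KO and 3 WT libraries. Tiles at the start are near 0%, most distant tiles are near 90%, and Arid1a and Arid1b have unmethylated tiles far from the start.

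Setd2 had the largest body difference among the genes with at least 5 body positions tested, and it did not pass the test. Its 11 body positions averaged 93.7%, 93.6% and 93.3% in KO libraries, against 86.0%, 91.1% and 89.4% in WT libraries. All KO libraries lay above all WT libraries, as at 26.5% of 10134 gene bodies; at 1.37% they lay below. With reads pooled over positions the body stood at 91.9% ± 1.74 in KO libraries and 85.6% ± 2.03 in WT libraries (SD, n = 3 each), a difference of 6.25 points (quasi-binomial model, unadjusted p = 0.0348, Benjamini-Hochberg adjusted p = 0.244 over all bodies).
With reads pooled the other bodies differed less. Averaged over positions, all but Ezh2's differed less: Ezh2's differed by 4.72 points, beside 4.70 points in Setd2. Arid1b's 294 body positions averaged 40.9%, 41.3% and 41.9% in KO libraries, against 39.1%, 39.4% and 40.5% in WT libraries. Kmt2d's 339 averaged 39.5%, 40.2% and 39.6% in KO libraries, against 38.2%, 39.4% and 39.4% in WT libraries. In both genes the KO libraries lay above the WT libraries by this measure, by a gap of under 1 point between the nearest libraries. Kmt2d's 339 include the 170 unmethylated positions around its start. Away from the starts the means differed by 1.43 points in Kmt2d and 2.22 points in Arid1b, against 0.747 and 1.71 points over the whole bodies. The groups did not overlap there either, and these differences were not tested. With reads pooled, as tested, both whole bodies overlapped: Arid1b had 43.0%, 38.96% and 44.3% in KO libraries, against 42.2%, 37.3% and 37.8% in WT libraries (adjusted p = 0.348). Kmt2d had 35.8%, 41.8% and 41.1% in KO libraries, against 36.3%, 36.9% and 37.4% in WT libraries (adjusted p = 0.391), and KO replicate 1 was the lowest of all 6. Kmt2c averaged 62.4% ± 0.760 in KO libraries and 62.2% ± 0.481 in WT libraries over 35 positions, Smarca4 94.1% ± 0.695 in KO libraries and 93.9% ± 1.97 in WT libraries over 29, and Crebbp 94.97% ± 1.14 in KO libraries and 93.7% ± 3.73 in WT libraries over 17. Ep300 had 2 body positions, averaging 91.3% in KO libraries and 94.9% in WT libraries, and Hdac3 had none. Away from the starts, Kmt2c differed by 0.307 points and Arid1a by 1.40 points, with overlapping groups. Ezh2's 6 body positions averaged 13.9% ± 2.60 in KO libraries and 9.22% ± 6.01 in WT libraries. Its 2 body positions away from the start stood at 46.2%, 31.7% and 46.5% in KO libraries, against 11.1%, 46.4% and 25% in WT libraries, with overlapping groups. With positions weighted equally, KO means were above WT means in 8 of 9 bodies, Ep300 being the exception. With reads pooled, they were above in 7 of the 7 testable member bodies, beside 75.8% of all testable bodies.
None of the 7 testable member bodies was called at an adjusted p under 0.05 and 10 points or more, where 0.0493% of all bodies were called higher and 0.00987% lower. At an unadjusted p under 0.05 there was 1, Setd2, by the quasi-binomial model, 14.3% of the 7, beside 17.8% of all bodies. Limma on log2 ratios called 0 of all 10134 bodies, so its 0 among the 7 carries no information. The median body difference was 1.29 points over the 7 genes and 1.69 points over all bodies; without WT replicate 2 it was 2.65 points over the 7 genes and 1.82 points over all bodies, and without WT replicate 3 it was 2.05 and 1.78 points, so no order between the members and all bodies holds.

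To locate differences more finely, CpGs were grouped in 1 kb tiles with at least 3 positions, of which the 10 windows held 93 of 113541. Of these, 37 lay below 5%, 17 above 95% and 39 in between, where a difference was tested; 35 of the 39 lay in gene bodies, 14 of them in Arid1b and 11 in Kmt2d. Ep300 and Ezh2 had no testable tile. No member tile was called higher or lower in KO by the quasi-binomial model at an adjusted p under 0.05 and 10 points, against 0.685% of all 83114 tested tiles called higher and 0.00241% called lower. Limma on log2 ratios called 0 of all 83114 tiles, and so can say nothing of the members. At an unadjusted p under 0.05 there were 9 member tiles, 23.1%, where the background was 11.5%; by limma there were 7, 17.9%, beside 9.40% of all tiles. Leaving out a library moved this count: it was 4 of 42, 9.52%, without KO replicate 3, beside 8.49% of all tiles, and 13 of 42, 31.0%, without WT replicate 2, beside 12.7% of all tiles. The KO mean was above the WT mean in 35 of 39 tiles, 89.7%, beside 64.0% of all tiles. All KO libraries lay above all WT libraries in 10 member tiles, where 12.7% of all tiles did, and below them in 2, where 3.54% did.
The median difference was 3.44 points over the 39 tiles and 1.28 points over all tested tiles, and single tiles ran between -3.87 and 28.1 points. Split by mean level, the member medians were 10.1 points in 6 tiles at 40% to 80%, 5.75 points in 7 tiles at 80% to 90% and 2.33 points in 26 tiles at 90% to 95%, beside 2.61, 1.30 and 0.773 points over all tiles at these levels. Tiles of a gene are not independent, and these counts are descriptions. Library medians over the 39 tiles were 93.0%, 93.3% and 92.6% in KO libraries and 88.1%, 90.5% and 90.1% in WT libraries. WT replicate 1 was the lowest WT library in 24 of the 39 tiles, and in 42.0% of all tiles. Without it the KO mean was above the WT mean in 30 of 39 tiles, and in 58.9% of all tiles. The WT libraries also spread more: the median SD over the 39 tiles was 2.41 points in KO libraries and 4.28 points in WT libraries, beside 2.78 points in KO libraries and 4.0 points in WT libraries over all tiles.

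**Figure D3:**
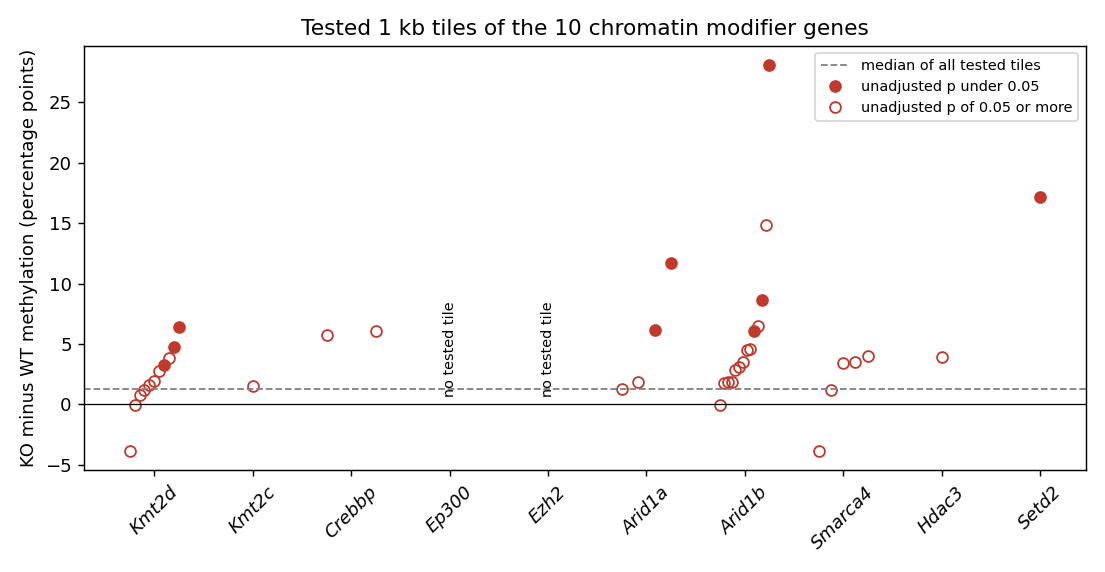
Difference in methylation level, KO minus WT (percentage points), of each of the 39 tested 1 kb tiles by gene; filled points have an unadjusted p under 0.05 and the dashed line is the median of all tested tiles. Of the 39 points 35 lie above 0, and 4 reach 10 points.

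Among the histone methyltransferase genes, the tile with the smallest p was in Setd2. At chr9:110601001-110602000, in the body 68.9 kb from the start, its 3 positions read 83.4%, 88.1% and 88.3% in KO libraries, against 62.5%, 73.2% and 72.5% in WT libraries, with 179 to 315 reads a library. The groups did not overlap. The means were 86.6% ± 2.76 in KO libraries and 69.4% ± 5.99 in WT libraries (SD, n = 3 each), a difference of 17.2 points (quasi-binomial model, unadjusted p = 0.00309, adjusted p = 0.136). At its position 110601575, named after its values were seen, the KO libraries read 73.8%, 86.6% and 82.4%, against 37.1%, 68.4% and 55.1% in the WT libraries (adjusted p = 0.165). The 3 positions of this tile are among the 11 of the Setd2 body. Setd2's other body tile, chr9:110561001-110562000, averaged 96.0% in KO libraries and 98.0% in WT libraries over 4 positions. That difference of -1.94 points lay above the 95% limit and was not tested.
Kmt2d's tile with the smallest p, chr15:98834001-98835000 near its far end, held 26 positions and 2060 to 3617 reads. It stood at 90.6%, 90.9% and 91.4% in KO libraries, against 84.7%, 88.8% and 89.6% in WT libraries, a difference of 3.30 points with separate groups (adjusted p = 0.329), which came to 1.82 points without WT replicate 1. Of Kmt2d's 11 tested tiles 9 had the higher mean in KO libraries. The exception with separate groups was chr15:98844001-98845000, at 91.4%, 91.6% and 92.3% in KO libraries, against 92.8%, 96.4% and 97.9% in WT libraries. Kmt2c, Kmt2d's paralogue, had a single testable tile, at 97.4%, 90.4% and 92.3% in KO libraries, against 96.3%, 90.5% and 88.7% in WT libraries. Its groups overlapped, with a difference of 1.54 points (adjusted p = 0.807).

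One CpG of Kmt2d was the only position of the 10 genes to pass the test. It lies at chr15:98859495 on the forward strand, inside the body, and read 93.6%, 92.6% and 85.8% in KO libraries, against 62.3%, 59.4% and 68.2% in WT libraries, at a coverage of 96 to 188. Every KO library was above every WT library. The level rose by 27.3 points, with means of 90.7% ± 4.21 in KO libraries and 63.3% ± 4.51 in WT libraries (SD, n = 3 each; quasi-binomial model, unadjusted p = 7.7e-05, adjusted p = 0.0332 over 525213 positions). Neighbouring measured positions had smaller values: at 98859498 the difference was 5.49 points, at 98859528 it was 3.42 points and at 98859579 it was -1.97 points. The 1 kb tile that holds this CpG, chr15:98859001-98860000, had 5 positions. It stood at 91.6%, 92.9% and 83.8% in KO libraries, against 78.4%, 85.4% and 85.2% in WT libraries. The groups overlapped, with a difference of 6.42 points (quasi-binomial model, adjusted p = 0.368). The other strand of the same CpG was not covered in all 6 libraries. The call was lost without KO replicate 1, 2 or 3 (adjusted p = 0.254, 0.285 and 0.0734) or WT replicate 1 (0.120), and by limma (0.699), which called none of the 525213 positions. Over the 10 genes 284 positions were testable; 1 was called higher, where 0.284% of all positions were, and 0 lower, where 0.0105% were. At an unadjusted p under 0.05 there were 27, 9.51%, beside 8.7% of all positions by the same model. By limma there were 24, 8.45%, beside 6.49% of all positions. All KO libraries lay above all WT libraries at 30 of the 284, where 8.3% of all positions did, and below them at 8, where 4.0% did.
Ezh2, the H3K27 methyltransferase gene, had 3 testable positions. At its position 47583587 on chromosome 6, named after its values were seen, the KO libraries read 34.6%, 19.4% and 35.1%, against 0%, 21.2% and 13.6% in the WT libraries. One WT library lay inside the KO range, coverage was 22 to 73 reads, and the difference of 18.1 points did not pass (adjusted p = 0.625).

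The acetyltransferase and deacetylase genes offered little testable sequence outside their starts. Crebbp's body tile at chr16:4114001-4115000 stood at 91.4%, 94.0% and 94.7% in KO libraries, against 75.4%, 94.5% and 92.0% in WT libraries. The groups overlapped, and the difference of 6.05 points (adjusted p = 0.482) came to 0.114 points without WT replicate 1 and 9.65 points without WT replicate 2. Ep300, its paralogue, had 3 testable positions, all with the lower mean in KO libraries, with a median difference of -4.47 points and none at an unadjusted p under 0.05. Hdac3's testable tile, chr18:37959001-37960000, lies outside the gene, where Rell2 and Fchsd1 are annotated. It stood at 97.0%, 96.2% and 92.5% in KO libraries, against 96.4%, 91.9% and 85.6% in WT libraries, with overlapping groups and a difference of 3.91 points (adjusted p = 0.711). It came to 1.07 points without WT replicate 3 and 6.44 points without WT replicate 1.

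The SWI/SNF subunit genes held 23 of the 39 tested tiles and the smallest adjusted p of them all. In Arid1a the 12 positions of chr4:133681001-133682000, in the body near the far end and 75.3 kb from the outer start, stood at 94.6%, 93.0% and 92.9% in KO libraries, against 86.2%, 86.6% and 89.2% in WT libraries. The groups did not overlap, and each library had 1384 to 2000 reads. The difference of 6.16 points had an adjusted p of 0.0720 (quasi-binomial model), which crossed 0.05 without WT replicate 3 (0.0418), still under the 10 points a call requires. Both strands of a CpG in this tile, named after its values were seen, read alike: at 133681583 the KO libraries had 98.8%, 82.4% and 80.6%, against 62.3%, 64.7% and 65.1% in the WT libraries, and at 133681584 the KO libraries had 94.0%, 89.0% and 85.3%, against 63.0%, 72.4% and 69.3% in the WT libraries. Neither passed, with adjusted p of 0.293 and 0.397. A further Arid1a tile, chr4:133728001-133729000, stood at 78.6%, 81.6% and 84.2% in KO libraries, against 59.8%, 75.3% and 74.3% in WT libraries over 3 positions (adjusted p = 0.324), and the KO libraries had 1.45 times the WT coverage there.
Arid1b, the paralogue of Arid1a, had the largest tile difference of the 10 genes. At chr17:5269001-5270000, 274 kb from the start, 3 positions read 95.3%, 96.5% and 92.3% in KO libraries, against 57.5%, 76.9% and 65.4% in WT libraries. The groups did not overlap, but a library had only 52 to 91 reads, and KO libraries had 1.34 times the WT coverage. The means were 94.7% ± 2.15 in KO libraries and 66.6% ± 9.75 in WT libraries (SD, n = 3 each), a difference of 28.1 points (adjusted p = 0.149). The next largest within Arid1b, 14.8 points at chr17:5134001-5135000, included 1 low library, WT replicate 1: the tile stood at 64.0%, 57.7% and 57.7% in KO libraries, against 22.2%, 51.2% and 61.6% in WT libraries, and the groups overlapped. At chr17:5017001-5018000 the KO libraries had 71.9%, 70.2% and 70.7%, against 56.1%, 65.8% and 65.0% in the WT libraries, without overlap (adjusted p = 0.353). Of Arid1b's 14 tested tiles 13 had the higher mean in KO libraries.
Smarca4 encodes the ATPase, and its 5 tested tiles were all above 90% in both groups' means. Its tile with the smallest p ran the other way from most: chr9:21686001-21687000 stood at 89.8%, 93.3% and 93.5% in KO libraries, against 94.5%, 95.2% and 98.4% in WT libraries. The groups did not overlap, with a difference of -3.83 points (adjusted p = 0.459). The tile next to it, chr9:21685001-21686000, differed the opposite way, at 93.9%, 96.0% and 94.8% in KO libraries, against 91.4%, 89.97% and 92.7% in WT libraries, also without overlap.

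**Figure D4:**
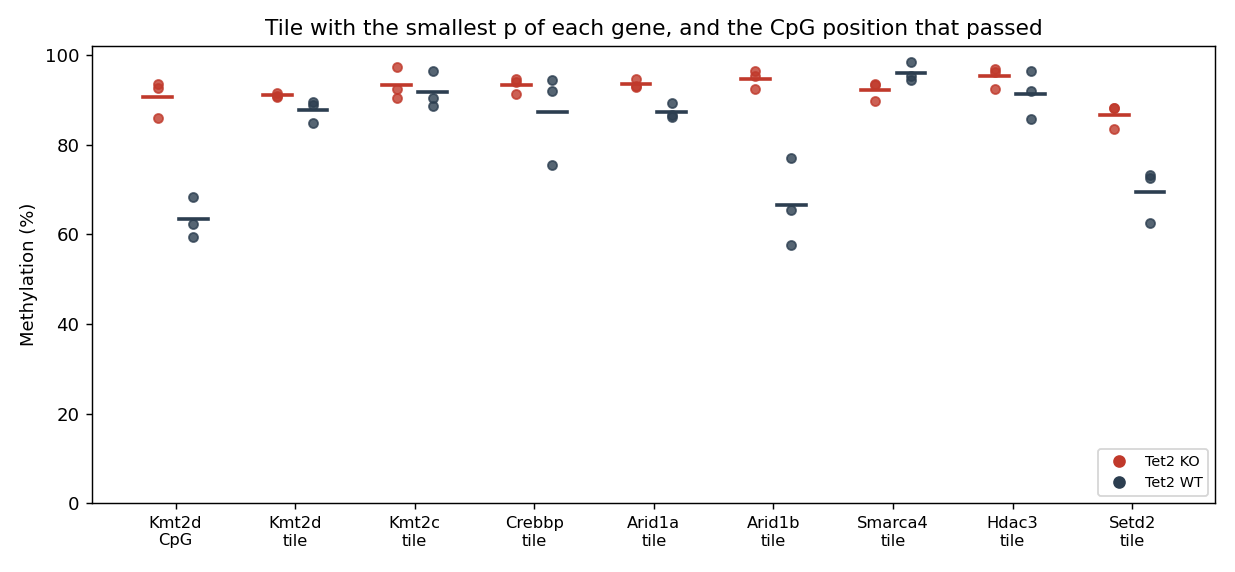
Methylation level (%) per library, KO left of WT, in the tile with the smallest unadjusted p of each of the 8 genes with a tested tile and at the Kmt2d CpG that passed the test. KO libraries lie above WT libraries without overlap in the Arid1a, Setd2, Arid1b and Kmt2d tiles and at the Kmt2d CpG, below in Smarca4, and overlap in Crebbp, Hdac3 and Kmt2c.

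The same reading over a longer list of 75 other chromatin genes, 60 of them with testable tiles, gave 3 tiles called higher in KO of 269, where 0.685% of all tiles were, and 0 lower, where 0.00241% were. By the quasi-binomial model 58 tiles, 21.6%, had an unadjusted p under 0.05, beside 11.5% of all tiles. Kdm2b, a histone demethylase gene whose product recruits Polycomb complexes to CpG islands, read 87.6%, 89.4% and 80.7% in KO libraries, against 44.8%, 64.0% and 71.8% in WT libraries at chr5:122948001-122949000. The groups did not overlap, and the level rose by 25.7 points (adjusted p = 0.0307). Smarca2, the paralogue of Smarca4 that encodes the alternative SWI/SNF ATPase, rose by 25.3 points at chr19:26759001-26760000, where KO libraries read 49.2%, 57.3% and 47.3%, against 15.1%, 28.5% and 34.3% in WT libraries (adjusted p = 0.0307). Ncor1, a corepressor that carries HDAC3 to its targets, rose by 22.6 points at chr11:62343001-62344000, where KO libraries read 85.7%, 90.2% and 85.9%, against 51.9%, 72.4% and 69.7% in WT libraries (adjusted p = 0.0330). In both genes the groups did not overlap. Each of the 3 calls was lost without WT replicate 1 and without any one KO library: the adjusted p without WT replicate 1 was 0.0589 for Kdm2b, 0.0943 for Smarca2 and 0.0508 for Ncor1, and without a KO library it ran between 0.0606 and 0.143 over the 3 tiles. The median difference over the 269 tiles was 2.78 points, beside 1.28 points over all tiles. At their CpG-denser ends 67 of 71 covered genes lay below 5%, a larger share than the 73.4% of all ends. Of the 4 testable ends 0 were called, and of the 50 testable bodies 0. By the quasi-binomial model 2 ends and 13 bodies had an unadjusted p under 0.05, beside 12.7% of all ends and 17.8% of all bodies.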

How the data were processed

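Enhanced reduced representation bisulfite sequencing libraries of 3 KO and 3 WT samples were used. Per the file headers, the deposited tables give for each CpG position and strand the coverage, a count of reads, and freqC and freqT, the percent of reads with C and with T; the minimum coverage found was 10. Bismark and GRCm38 are named in the submitters' processing notes; their versions and any trimming were not stated there. MspI sampling leaves CpG-poor sequence unread, and reads without molecular identifiers are not independent molecules.

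Methylated reads were recovered as coverage times freqC, whole at all positions. Gene spans and promoters came from RefSeq (GRCm38.p6). Positions covered in all 6 libraries, 1 kb tiles (3 positions or more), ends (3 or more) and bodies (5 or more) were tested at mean levels between 5% and 95% with a quasi-binomial logistic model, dispersions moderated across features as in limma, in Python 3.11.15 (scipy 1.17.1); p-values were adjusted by Benjamini-Hochberg over all features. Calls required an adjusted p under 0.05 together with group means at least 10 points apart. The code was tested on simulated data; limma 3.58.1 on log2 ratios (offset 1 read) was an alternative. Alternatives left out each library, changed the coverage minimum to 20, shifted tiles by 500 bases, weighted positions equally, dropped the level filter or dispersion moderation, added a replicate block, dropped positions of the highest coverage, or needed coverage in 2 libraries a group. No test was made between genes.

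The members, the marker and chromatin gene lists and the tests were chosen with earlier results of these data known. All 10 genes are named whatever their values; tiles and positions are those called, and each gene's tile with the smallest unadjusted p. Positions or tiles beyond that rule were chosen after their values were seen.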

Additional observations from a re-analysis of the deposited data

How the results depend on the processing

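No member tile or body was called in any alternative run, in fits that often call few tiles anywhere: limma and the fit without dispersion moderation called 0 of all 83114 tiles, the fit without the level filter called 8 of 113541 tiles higher, and the 569 tiles called higher with all libraries became 124 to 1150 when 1 library was left out. No member end could be tested except without the level filter, where 0 of 10 and 0 of all 14434 ends were called. The count of member CpG positions called higher, 1 with all libraries, ran from 0 to 3 when 1 library was left out, and was 0 with limma, 0 without dispersion moderation, 0 without the level filter and 0 with the replicate block; limma and the block called 0 of all positions. The 3 calls in other chromatin genes ran from 0 to 8 when 1 library was left out, and were 0 with limma, 0 without moderation, 0 without the level filter and 5 with the replicate block. The Kmt2d CpG was called in 6 of 14 alternatives. The median difference of member tiles was 0.165 points without the level filter, which by its construction adds the tiles near 0% and 100%, and 2.18 to 3.79 points otherwise. The sign turned for Kmt2c and Smarca4, which were never called, and the cause was not tested. The Kmt2c tile was negative without KO replicate 1 (-0.468 points) or WT replicate 3 (-0.0424 points), as was the Kmt2c body (-0.422 and -1.67 points), and the Smarca4 body was negative without WT replicate 1 (-0.0835 points). With 1 library left out the Kmt2c tile ran up to 3.79 points, the Kmt2c body up to 3.06 points and the Smarca4 body up to 2.05 points. Pairing of the libraries by replicate number was not established. Deviations of same-numbered KO and WT libraries correlated at 0.0229, 0.0022 and 0.0037 across tiles, and of others at -0.0203 to 0.0150. Mitochondrial C calls were 0.258% in KO and 0.260% in WT replicate 1, 0.408% and 0.410% in replicate 2, and 0.294% and 0.241% in replicate 3. These values do not decide the pairing. With the block in the quasi-binomial model, tiles called higher went from 569 to 886. The adjusted p was 0.00566 for the Ncor1 tile, 0.00944 for Kdm2b, 0.0130 for Smarca2 and 0.540 for the Kmt2d CpG. Depth limits single positions and the Arid1b tile, and the member regions not cut into MspI fragments are unread.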
